A study of Mus musculus with 2 samples.

Results

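IgA plasma cells are the antibody-secreting cells that release IgA, the immunoglobulin class of the gut surface. They were chosen here by their own RNA, in 2 single-cell libraries of mouse colon under dextran sulfate sodium (DSS), which damages the gut lining. A cell barcode was taken when it had 500 or more UMIs (unique molecular identifiers, each counting 1 captured RNA molecule) and 200 or more genes, with no more than 25% of its UMIs mitochondrial. It also needed at least 20 UMIs of Jchain and a UMI of at least 2 of the 6 genes Xbp1, Sdc1, Derl3, Tnfrsf17, Prdm1 and Eaf2, with more UMIs of Igha than of each of Ighm, Ighg1, Ighg2b, Ighg2c and Ighg3. This gave 329 of 9734 cells in the library labelled Elf1 knockout and 321 of 8124 cells in the wild-type library, 650 of 17858 in all. The RNA of these chosen genes is therefore given as a description.

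The knockout-labelled library was made from the colons of C57BL/6 mice labelled Elf-1 KO, and its counterpart from wild-type (WT) C57BL/6 mice. All of these mice had received DSS and were 8 to 10 weeks old. The cells of 3 mice were pooled per library, from the proximal and distal colon and the rectum, and were captured on Singleron GEXSCOPE microchips after tissue digestion. Neither the DSS dose nor the deleted part of Elf1 is given in the sources used here, and there was no untreated group. With 1 library per genotype and no map from cells to mice, differences between mice within a pool are unknown. No difference was tested. All intervals in parentheses are 95% intervals for counting error.

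A plasma cell makes 1 heavy and 1 light chain, and its endoplasmic reticulum (ER) folds and assembles them. The factor Xbp1 drives the growth of this secretory machinery as part of the unfolded protein response (UPR). In IgA plasma cells the J chain joins IgA monomers into dimers, which the polymeric Ig receptor Pigr then carries across the epithelium. Homing to mucosa is known to involve the chemokine receptors Ccr10 and Ccr9 and the integrin of Itga4 and Itgb7, and long-term survival the receptor Tnfrsf17 (BCMA). Elf1 is an ETS-family transcription factor.

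Elf1 itself (ENSMUSG00000036461) had 265 UMIs, or 209 CPM, in knockout-labelled cells, against 320 UMIs, or 203 CPM, in wild-type cells, a ratio of 1.03 (0.872 to 1.22). A UMI of it was seen in 41.9% of knockout-labelled and 46.4% of wild-type IgA plasma cells. When each cell was thinned to 1000 UMIs outside immunoglobulin, these shares were 17.4% and 16.1%, and those of T cells 36.6% and 37.1%. This thinning left out 24 knockout-labelled and 17 wild-type IgA plasma cells with fewer such UMIs, out of medians of 3079 and 4045. The Elf1 levels of the libraries lay within counting error of each other. Counts cover the whole gene while the deleted part is unknown, so this level checks nothing about the deletion.

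The knockout-labelled file held 10012 barcodes and 39750319 UMIs and the wild-type file 8635 barcodes and 32481613 UMIs. Of the barcodes, 57 occurred in both files. They included 1 IgA plasma cell of each library, and no barcode was an IgA plasma cell in both. IgA plasma cells held 11.5% of the UMIs of knockout-labelled cells and 16.8% of those of wild-type cells, and 88.3% and 87.3% of all immunoglobulin UMIs. Their RNA content was far above that of other cells. The median was 13637 UMIs (lowest 875, highest 56039) in knockout-labelled IgA plasma cells and 16331 UMIs (lowest 1124, highest 46927) in wild-type ones, where all cells had medians of 2679 and 2041 UMIs.

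Immunoglobulin and Jchain RNA made up a median of 76.2% of a knockout-labelled cell's UMIs (lowest 5.45%, highest 89.0%) and 75.4% of a wild-type cell's (lowest 1.61%, highest 89.4%). The ranges overlapped almost completely. Igha (chr12:113254830-113260236, minus strand, GRCm38) had a median of 3645 UMIs in knockout-labelled cells, with a lowest of 10 and a highest of 15705. In wild-type cells its median was 4041, with a lowest of 12 and a highest of 13273. Jchain (chr5:88519809-88527891, minus strand) had medians of 728 and 946 UMIs. T cells, which make no immunoglobulin, had a median of 3 Igha UMIs in both libraries, and the level that 99% of them do not exceed was 29.5 and 22 UMIs. At or below that T cell level lay 2 IgA plasma cells of each library. Just inside the Jchain threshold, 9 knockout-labelled and 5 wild-type cells had 20 to 29 Jchain UMIs, with median Igha counts of 127 and 92. Just outside it, 35 and 29 barcodes had 10 to 19 and met the rest of the rule, with medians of 102 and 62. Igha exceeded every other heavy chain at least 10 times in 329 of 329 and 316 of 321 cells.

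**Figure D1:**
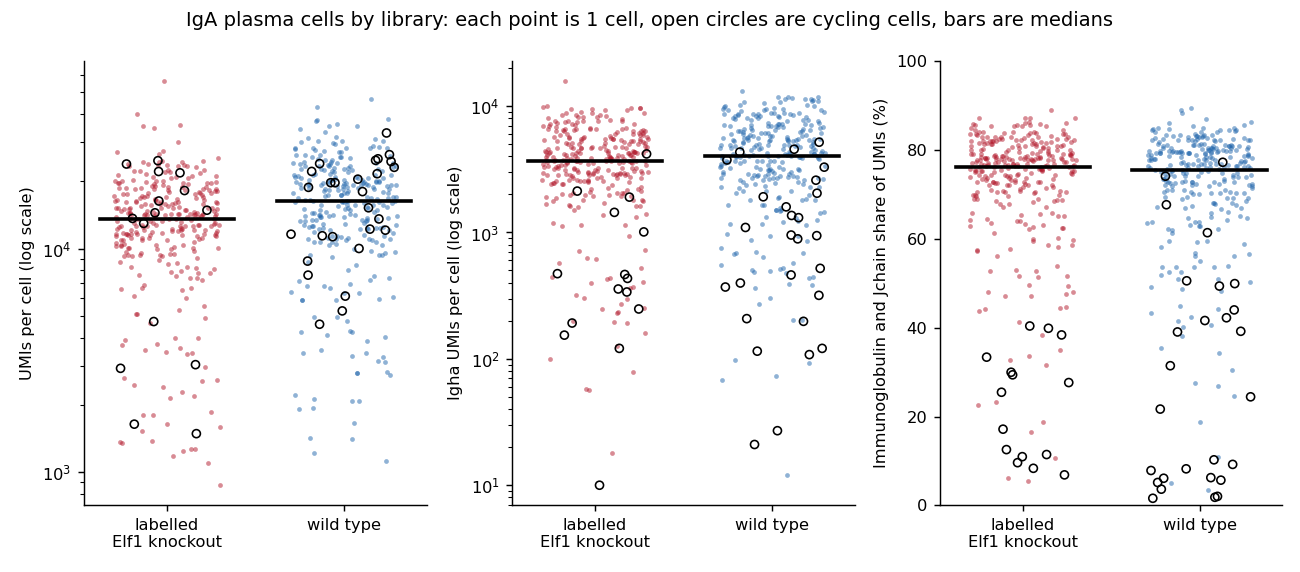
UMIs per cell (log scale), Igha UMIs per cell (log scale) and the share of UMIs from immunoglobulin genes and Jchain (%) in each IgA plasma cell, with the library labelled Elf1 knockout left of wild type. Bars are medians (13637 against 16331 UMIs, 3645 against 4041 Igha UMIs, 76.2% against 75.4%), and open circles are cycling cells, most of which lie at a low immunoglobulin share.

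The chosen cells are set beside B cells of the same libraries as a description, since Derl3 and Tnfrsf17 belong to the choosing rule and Pax5 to the B cell gate. Levels are given as CPM, counts per 1000000 UMIs. For genes outside immunoglobulin and Jchain the total counts the UMIs of those other genes alone, 1267594 in knockout-labelled and 1575987 in wild-type IgA plasma cells, so that antibody RNA does not set the scale. Derl3, an ER-associated degradation factor of secretory cells, was at 676 CPM in knockout-labelled cells, against 568 CPM in wild-type cells, where B cells had 2.52 and 7.54 CPM. Tnfrsf17 was at 136 CPM in knockout-labelled cells, against 265 CPM in wild-type cells, with 0 and 0.397 CPM in B cells. The B cell factor Pax5 ran the other way, at 0.789 CPM in knockout-labelled and 11.4 CPM in wild-type IgA plasma cells, against 208 and 265 CPM in B cells. Summed markers of T cells came to 0.277 and 0.343 UMIs per cell, and all 5 glial markers were at 0 in knockout-labelled cells and 4 of the 5 in wild-type cells.

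RNA typical of other cell types was also counted in these barcodes, and its amount differed between libraries. The 6 neutrophil markers summed to 11.5 UMIs per knockout-labelled and 0.816 per wild-type IgA plasma cell, and the 6 erythroid markers to 22.2 and 2.80. The 6 fibroblast markers gave 18.8 and 9.79 UMIs, and the 7 macrophage markers 4.89 and 2.46. Epithelial markers, 8 genes, went the other way with 0.872 and 2.77 UMIs, and the 8 B cell markers with 3.70 and 6.36. Lists for smooth muscle, endothelial, mast and dendritic cells each summed to under 0.5 UMIs per cell. Of the 8 epithelial markers 3 were at 0 in knockout-labelled and 0 in wild-type cells, and of the 6 neutrophil markers 0 and 1. Neutrophil, erythroid, fibroblast and macrophage RNA was thus more abundant in the knockout-labelled IgA plasma cells, and epithelial and B cell RNA in the wild-type ones. Their part in the results below was not tested, except where values without the affected cells are given.

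As a share of all cells, IgA plasma cells made up 3.38% (3.03 to 3.76) of the knockout-labelled and 3.95% (3.54 to 4.398) of the wild-type library, a ratio of 0.855 (0.731 to 1.001). Among plasma cells of any heavy chain the share was 92.9% of 354 knockout-labelled and 85.4% of 376 wild-type cells. The remaining 25 and 55 cells were led by Ighm or an Ighg gene. Among plasma cells and gated B cells together (583 knockout-labelled and 2199 wild-type B cells), IgA plasma cells were 35.1% and 12.5%, a ratio of 2.82 (2.41 to 3.29). The larger share of the B lineage in the knockout-labelled library went with its smaller number of gated B cells. Shares of dissociated cells depend on recovery, and fewer cells of a type cannot be told apart from fewer recovered.

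The antibody RNA was dominated by IgA with a kappa light chain in both libraries. Igha took 28.3% of all UMIs of the knockout-labelled and 26.6% of those of the wild-type IgA plasma cells. Igkc, the kappa constant gene (chr6:70726435-70726966, plus strand), took 36.5% and 33.1%, and Jchain 5.08% and 5.52%. The lambda constant genes were lower in the knockout-labelled cells. Iglc1 was at 0.777% and 2.74% of UMIs, Iglc2 at 0.0724% and 0.650%, and Iglc3 at 0.0569% and 0.516%.

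The same held cell by cell. More lambda than kappa UMIs were seen in 9 of 329 knockout-labelled cells, or 2.74% (1.26 to 5.13), and in 26 of 321 wild-type cells, or 8.10% (5.36 to 11.6), a ratio of 0.338 (0.139 to 0.744). Lambda cells had median lambda counts of 2809 and 7213.5 UMIs, beside 19 and 24.5 UMIs of Igkc. Kappa cells had median Igkc counts of 4665.5 and 5644 UMIs, beside 15 and 29 lambda UMIs. Light chain use was therefore close to exclusive in single cells. Cells of 1 clone share their light chain and are not independent. An Ighg1 UMI was seen in 6.38% of knockout-labelled and 51.4% of wild-type IgA plasma cells, and in 1.55% of knockout-labelled and 13.8% of wild-type T cells, so both cell types carried it more often in the wild-type library.

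The variable genes show which antibodies the cells carried. A leading heavy variable gene, the Ighv gene with the most UMIs and at least 3, was found in 278 of 329 knockout-labelled cells (84.5%) and 283 of 321 wild-type cells (88.2%). These cells used 56 and 52 different Ighv genes. A leading light variable gene was found in 305 and 307 cells, from 54 and 53 genes. The leading gene held over 90% of the cell's heavy variable UMIs in 76.3% of knockout-labelled and 70.7% of wild-type cells.

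Ighv9-3 led the heavy chains of both libraries. The sequences of 3 heavy variable genes are printed, as their first 300 bases, because they carry this pattern, Ighv9-3 as the gene shared by the libraries and Ighv2-9-1 and Ighv2-2 as genes that each led cells of 1 library. They are the annotated transcripts of GENCODE M21 on GRCm38, minus strand, from the first start codon, and the capitals mark the bases that differ from the nearest other annotated variable gene. Ighv9-3 lies at chr12:114140692-114141122, has 351 coding bases and differs from Ighv9-2 at 20, all shown (94.3% identity). Ighv2-9-1 lies at chr12:113769850-113770302, has 350 and differs from Ighv2-6 at 24, of which 21 are shown (93.1%). Ighv2-2 lies at chr12:113588267-113588702, has 350 and differs from Ighv2-4 at 8, of which 5 are shown (97.7%).
Ighv9-3: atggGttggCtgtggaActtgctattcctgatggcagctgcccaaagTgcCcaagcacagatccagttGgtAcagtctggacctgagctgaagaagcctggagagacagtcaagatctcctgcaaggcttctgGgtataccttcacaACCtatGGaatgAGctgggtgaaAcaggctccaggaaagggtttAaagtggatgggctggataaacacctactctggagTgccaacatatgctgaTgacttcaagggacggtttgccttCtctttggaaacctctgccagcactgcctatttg
Ighv2-9-1: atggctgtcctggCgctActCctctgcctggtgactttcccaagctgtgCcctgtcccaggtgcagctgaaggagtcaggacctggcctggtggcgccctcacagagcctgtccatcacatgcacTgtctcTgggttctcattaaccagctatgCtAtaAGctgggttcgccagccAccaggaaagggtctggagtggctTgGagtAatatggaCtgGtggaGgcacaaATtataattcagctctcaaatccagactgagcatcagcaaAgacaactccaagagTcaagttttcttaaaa
Ighv2-2: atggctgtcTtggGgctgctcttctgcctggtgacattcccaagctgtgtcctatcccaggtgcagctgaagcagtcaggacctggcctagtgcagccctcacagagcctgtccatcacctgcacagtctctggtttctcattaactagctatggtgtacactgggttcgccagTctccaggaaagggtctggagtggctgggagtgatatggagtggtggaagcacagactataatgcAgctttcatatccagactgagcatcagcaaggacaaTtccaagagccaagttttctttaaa
Reads of such close relatives can be assigned to either copy, so a gene name stands for the best match of the authors' counting. Ighv2-9-1 and Ighv2-2 differ from each other at 38 bases.

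Ighv9-3 led 42 of 278 knockout-labelled cells, or 15.1% (11.1 to 19.9), and 47 of 283 wild-type cells, or 16.6% (12.5 to 21.5). Its median count in those cells was 43 and 49 UMIs, while T cells averaged 0.0348 and 0.0363. The share was alike in both libraries within counting error. Its cells were not all of 1 clone, since they carried 14 different leading light genes in the knockout-labelled and 11 in the wild-type library. Ighv1-26 followed with 13 and 22 cells and Ighv3-6 with 16 and 18. Among IgG and IgM plasma cells Ighv9-3 led 1 of 21 knockout-labelled and 3 of 39 wild-type cells.

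Other heavy genes were found mostly in cells of 1 library. Ighv2-9-1 led 12 knockout-labelled cells and 0 wild-type cells, and Ighv5-16 led 10 and 0. Ighv2-2 led 0 knockout-labelled and 14 wild-type cells, Ighv1-59 led 0 and 10, Ighv7-3 led 1 and 10 and Ighv1-39 led 2 and 12. The exact interval of a count of 0 reached 1.32% of knockout-labelled and 1.295% of wild-type cells. The Ighv1 family led 46.0% of knockout-labelled and 52.7% of wild-type cells, Ighv9 16.2% and 16.6%, Ighv5 11.5% and 5.65%, Ighv3 8.27% and 7.42%, Ighv8 6.83% and 3.18% and Ighv2 5.04% and 6.01%. Ighv7 led 1 knockout-labelled cell (0.360%, 0.00911 to 1.99) and 10 wild-type cells (3.53%, 1.71 to 6.40). The intervals of each of these families overlapped between the libraries, as for Ighv5 (8.01 to 15.9 and 3.27 to 9.02). Cells of 1 clone share their heavy variable gene, so these cells are not independent.

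Among light chains, Igkv6-23 (chr6:70260409-70260955, minus strand) led 29 of 305 knockout-labelled cells (9.51%) and 34 of 307 wild-type cells (11.1%). Igkv1-110 led 19 and 18 cells, and Igkv8-24 led 16 and 18. These 3 leading kappa genes were thus used to a similar extent. Igkv3-10 led 15 knockout-labelled cells and 1 wild-type cell, and Igkv4-58 led 0 and 14. Iglv1, the main lambda gene, led 8 and 21.

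Combinations of a heavy and a light gene are a rough mark of clones. In 273 knockout-labelled cells with both chains 135 combinations were seen, and 138 in 281 wild-type cells. Of these cells, 71.1% and 68.3% shared their combination with another cell of the same library. The largest combination in the knockout-labelled library was Ighv2-9-1 with Igkv6-23, in 12 cells and in 0 wild-type cells. In the wild-type library it was Ighv1-55 with Igkv6-23, in 13 cells and in 1 knockout-labelled cell. Each library thus had its own largest combination, with the same light gene. Ighv1-26 with Igkv10-96 and Ighv2-2 with Igkv4-58 were each in 0 knockout-labelled and 12 wild-type cells, and Ighv9-3 with Igkv12-44 was in 7 and 0.

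Combinations seen in both libraries numbered 21, which is 15.6% of those of the knockout-labelled and 15.2% of those of the wild-type library, and they held 70 and 72 cells, 25.6% of each. Ighv9-3 with Igkv8-24 was the most frequent of the shared ones, in 9 knockout-labelled and 11 wild-type cells. Ighv3-6 with Igkv8-24 and Ighv9-3 with Igkv15-103 were each in 5 and 6 cells. The 10 largest combinations held 24.5% of knockout-labelled and 31.7% of wild-type cells. Junction sequences were not used here, so cells of 1 combination may still belong to several clones, and the 3 mice of a pool cannot be told apart.

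**Figure D2:**
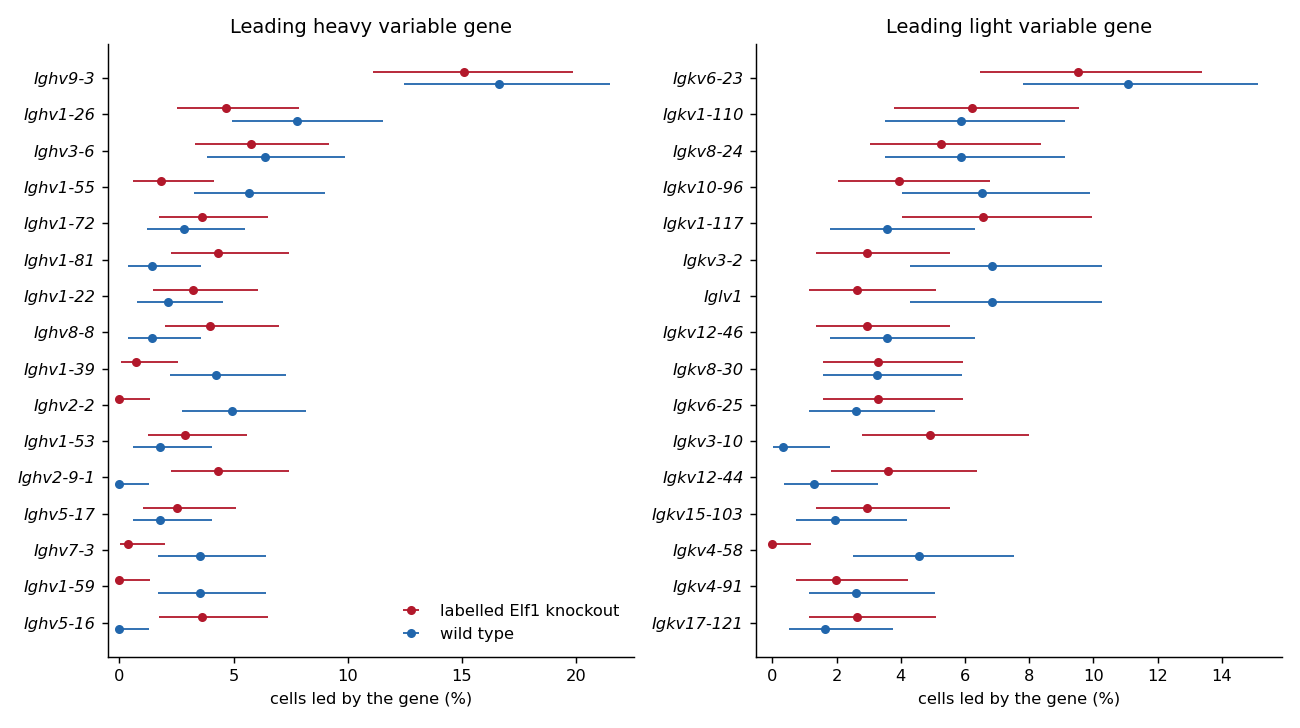
Share of IgA plasma cells (%) led by each of the most frequent heavy (left) and light (right) variable genes, with the library labelled Elf1 knockout (red) above wild type (blue) and lines for the exact binomial 95% interval. Ighv9-3 stands at 15.1% and 16.6%, while Ighv2-9-1 led 12 knockout-labelled and 0 wild-type cells and Ighv2-2 led 0 and 14.

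Outside immunoglobulin, 6217 genes had at least 50 UMIs over the IgA plasma cells of both libraries, with a median log2 ratio of knockout-labelled over wild type of -0.081. At least 2-fold higher in knockout-labelled cells were 265 genes (4.26%), and at least 2-fold lower 291 (4.68%). At 3 times the background bound, the lowest mean count among 7 other cell classes, stood 5091 genes, of which 219 were 2-fold higher (4.3%) and 280 lower (5.5%). The most extreme ratios were those of genes of other cell types. Genes at each end were then named among those with a UMI in at least 10% of the cells of a library, 3 times the bound and an interval that excludes 1, leaving out the marker genes of other cell types. The 12 highest of these had their highest level in neutrophils, fibroblasts or endothelial cells of the knockout-labelled library, among them Lcn2 at 469 against 13.3 CPM, Saa3 at 5160.2 against 210 CPM and Mmp3 at 834 against 41.9 CPM (knockout-labelled against wild-type cells). Of the 12 lowest, 11 were highest in epithelial cells of the wild-type library and had 2 or fewer UMIs in the knockout-labelled cells, such as Lgals4 with 2 against 331 UMIs and Lypd8 with 0 against 355 UMIs. The other one was the heat shock gene Hspa1b. Each of these 24 genes had a higher level in another cell class than in IgA plasma cells in the library where it was higher.

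A second set was therefore formed after these values had been seen. It kept 3540 genes whose mean count per cell was at least 3 times the lowest among 7 gated cell classes and whose CPM was at least 0.5 times that of the highest other class, in the library where the gene was higher. A gene of this set can thus still be up to 2 times as high in another class. Of these, 76 were at least 2-fold higher (2.15%) and 144 at least 2-fold lower (4.07%) in knockout-labelled cells. The genes below are called the cells' own when they belong to this set.

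Among the own genes that met the same limits for naming, which left 51 of the 76, the highest was Gpnmb, a membrane glycoprotein of lysosome-rich cells (ENSMUSG00000029816, chr6:49036546-49070929, plus strand), with 426 UMIs, or 336 CPM, in knockout-labelled cells, against 128 UMIs, or 81.2 CPM, in wild-type cells, a ratio of 4.14 (3.39 to 5.08). It was seen in 49.8% of knockout-labelled and 18.7% of wild-type IgA plasma cells, or in 25.6% and 6.25% at 1000 other UMIs per cell, where T cells showed it in 0.826% and 0.304%. Macrophages and monocytes of the knockout-labelled library held more of it, at 566 CPM, and the part of macrophage RNA, whose summed markers were 4.89 UMIs per knockout-labelled and 2.46 per wild-type cell, was not tested. With cells thinned to 1000 UMIs in all, the log2 ratio of Gpnmb was 1.39 in place of 2.05. The pigment-signalling gene a (agouti) had 446 UMIs, or 352 CPM, in knockout-labelled cells, against 147 UMIs, or 93.3 CPM, in wild-type cells, a ratio of 3.77 (3.12 to 4.58). Eif4ebp1, a brake on cap-dependent translation, was at 211 CPM in knockout-labelled cells, against 78.7 CPM in wild-type cells, a ratio of 2.69 (2.16 to 3.35). Sesn2 and Chac1, which are induced by the Atf4 arm of the stress response, were at 36.3 against 10.8 CPM and 45.8 against 15.9 CPM in knockout-labelled against wild-type cells, ratios of 3.36 (1.89 to 6.26) and 2.88 (1.78 to 4.81). Sesn2 was higher in neutrophils of the knockout-labelled library, at 47.0 CPM. The other highest genes of this set were C1qtnf4, Apmap, Ypel2, Dnm3, Macrod1, Ppt2 and Smad4, with log2 ratios between 1.43 and 2.03.

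Lowest among the own genes within these limits stood heat shock genes, which the next paragraph describes, and a group without a shared role. Pon3, a lactonase, had 38 UMIs, or 29.98 CPM, in knockout-labelled cells, against 339 UMIs, or 215 CPM, in wild-type cells, a ratio of 0.139 (0.0969 to 0.195). Ly6k had 41 UMIs, or 32.3 CPM, in knockout-labelled cells, against 242 UMIs, or 154 CPM, in wild-type cells and was seen in 1.52% and 12.1% of cells. At 1000 other UMIs per cell the shares of Ly6k were 0.984% in knockout-labelled and 7.57% in wild-type cells, beside 0.413% and 0.913% of T cells. Most wild-type IgA plasma cells thus had no Ly6k UMI. Ap1g2, Ebpl, Slamf9, Gtpbp6, H2-T24 and Atat1 lay between log2 ratios of -3.21 and -1.83, on 133 or fewer UMIs in wild-type cells. Ebpl was at -2.86 with each cell weighing the same, in place of -1.98.

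Heat shock chaperones were the list farthest below the others. They keep cytosolic and mitochondrial proteins folded and are induced by heat and other stress through the factor Hsf1. Of 21 measured members, 12 were at least 2-fold lower in knockout-labelled cells and 0 higher, beside 4.68% and 4.26% of all genes. The median log2 ratio was -1.09, against -0.081 for all genes. Of the 14 own members, 7 were at least 2-fold lower, beside 4.07% of all own genes. Hspa1a, the inducible Hsp70 (ENSMUSG00000091971, chr17:34969190-34972156, minus strand), had 440 UMIs, or 347 CPM, in knockout-labelled cells, against 6504 UMIs, or 4127 CPM, in wild-type cells, a ratio of 0.0841 (0.0762 to 0.0926). Reads of Hspa1a and of its near-identical neighbour Hspa1b, at 74.2 against 1033 CPM, may be split between the copies, and both were lower. The Hsp70 partner Dnajb1 was at 338 CPM in knockout-labelled cells, against 2047 CPM in wild-type cells, a ratio of 0.165 (0.149 to 0.183).

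The mitochondrial pair showed it too, with Hspe1 at 182 against 692 CPM and Hspd1 at 124 against 289 CPM in knockout-labelled against wild-type cells. Hsph1 had 29.98 against 222 CPM, Hspa8 1543 against 3829 CPM and Hsp90ab1 1104 against 2292 CPM. Hspa1b, Hspa1a, Hsph1 and Dnajb1 were the members farthest below 1, while Ahsa1 (log2 ratio -0.32, -0.71 to 0.073) and Ubb (log2 ratio -0.18, -0.22 to -0.14) differed least. An Hspa1a UMI was seen in 24.6% of knockout-labelled and 81.9% of wild-type IgA plasma cells, or in 12.8% (9.25 to 17.1) and 59.9% (54.1 to 65.4) at 1000 other UMIs per cell. T cells showed 8.06% and 55.7%.

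Other cell types of the same libraries showed the difference as well. The list's median log2 ratio was -0.99 in IgG and IgM plasma cells, -0.99 in T cells, -1.20 in B cells, -0.75 in macrophages and monocytes, -0.73 in endothelial cells, -0.69 in smooth muscle cells and pericytes, -0.52 in neutrophils and -0.51 in fibroblasts. All genes of these classes had medians between -0.31 (fibroblasts) and 0.28 (neutrophils). At least 2-fold lower were 9 of 18 members in IgG and IgM plasma cells, where 12% of all genes were. In T cells it was 10 of 21 members against 4.39% of all genes, in B cells 13 of 21 against 10.8%, and in macrophages and monocytes 9 of 21 against 6.44%. Endothelial cells had 5 of 20 members lower against 5.58% of all genes, smooth muscle cells and pericytes 6 of 21 against 9.59%, neutrophils 5 of 20 against 6.73% and fibroblasts 4 of 21 against 12.5%. At least 2-fold higher were 2 members in neutrophils, where 24.7% of all genes were. In the other classes 0 members were higher, beside 3.79% of all genes in IgG and IgM plasma cells, 5.77% in T cells, 5.46% in B cells, 5.62% in macrophages and monocytes, 3.26% in endothelial cells, 7.29% in smooth muscle cells and pericytes and 3.38% in fibroblasts. The share of members lower was thus nearest to that of all genes in fibroblasts. With 1 library per genotype, library preparation and genotype cannot be told apart.

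Immediate early genes, transcription factors and regulators that switch on within minutes of a stimulus, had a median log2 ratio of -0.34 over 23 members. At least 2-fold lower were 3 and higher 0, beside 4.68% and 4.26% of all genes. Jun was at 3861 CPM in knockout-labelled cells, against 8893 CPM in wild-type cells, a ratio of 0.434 (0.420 to 0.449), and Ier2 at 1136 CPM in knockout-labelled cells, against 2569 CPM in wild-type cells. The quiescence factor Klf2 was at 1916 CPM in knockout-labelled cells, against 3995 CPM in wild-type cells. Fos, among the most abundant RNAs of the cells, was at 12129 CPM in knockout-labelled cells, against 15326 CPM in wild-type cells, a ratio of 0.791 (0.775 to 0.808), and Jund differed little (log2 ratio -0.10, -0.15 to -0.056). The highest members were Ier3 (log2 ratio 0.93, 0.70 to 1.15) and Fosl2 (log2 ratio 0.64, -0.029 to 1.31). Ier3 stood at 0.33 without cells under 50% immunoglobulin. The list's median was -0.065 in T cells, -0.13 in B cells and -0.70 in fibroblasts.

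**Figure D3:**
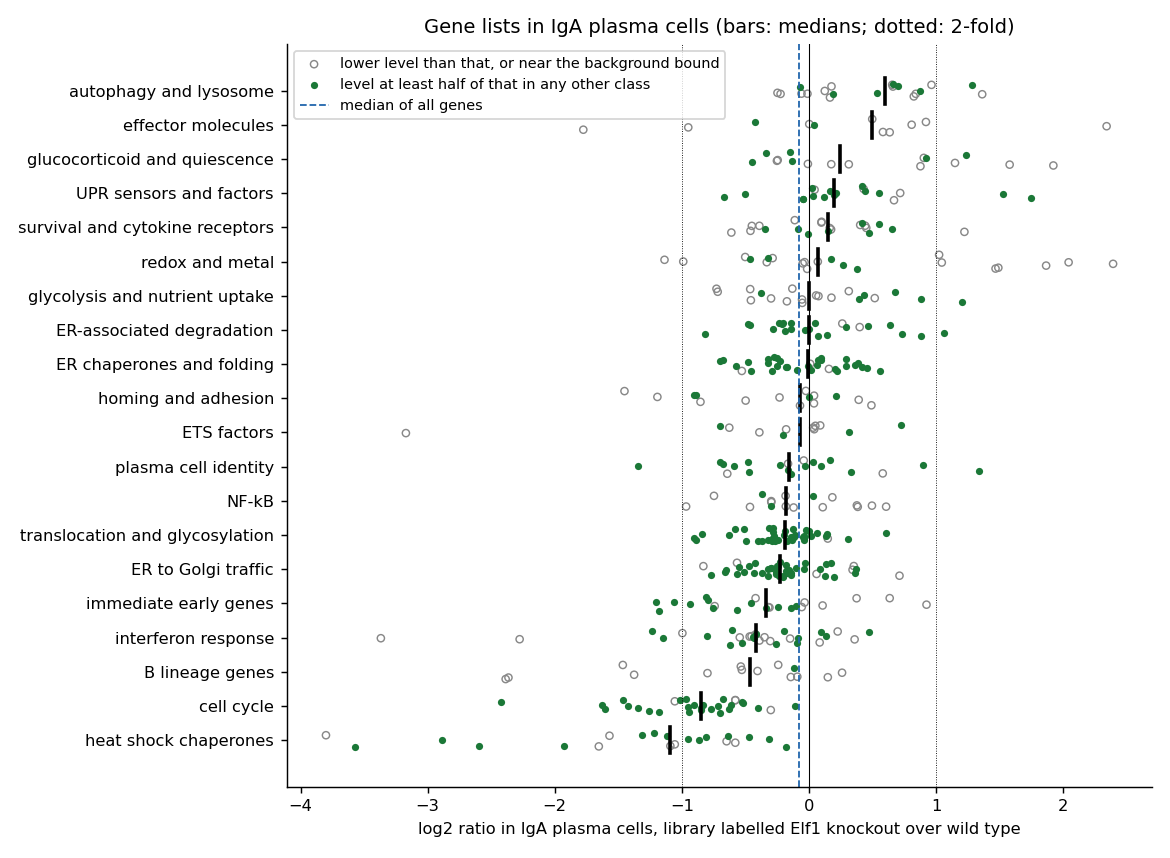
Log2 ratio, library labelled Elf1 knockout over wild type, of each measured gene of 20 lists in IgA plasma cells. Filled points are genes at 3 times the background bound and at least 0.5 times the level of any other cell class, open points the others, bars list medians, the dashed line the median of all genes and the dotted lines 2-fold. Heat shock chaperones (median -1.09) and cell cycle genes (-0.85) stand lowest, and autophagy and lysosome genes (0.60) highest.

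The machinery of antibody folding differed little as a list, with a median log2 ratio of -0.0055 over 33 measured ER chaperones and folding enzymes. Of these, 0 were 2-fold higher and 0 were 2-fold lower, beside 4.26% and 4.68% of all genes. The interval lay above 1 for 7 and below 1 for 13 of them. Hspa5 (BiP), the ER Hsp70 that holds unassembled heavy chains (ENSMUSG00000026864, chr2:34771970-34777547, plus strand), had 7080 UMIs, or 5585 CPM, in knockout-labelled cells, against 7193 UMIs, or 4564 CPM, in wild-type cells, a ratio of 1.22 (1.18 to 1.26). Its partner Hsp90b1 was at 5182 CPM in knockout-labelled cells, against 5118 CPM in wild-type cells, a ratio of 1.01 (0.980 to 1.05). Members of the list differed in both directions. Calr was at 2588 against 1934 CPM, Pdia4 at 1266 against 920.1 CPM, Creld2 at 1859 against 1420.1 CPM and Txndc11 at 783 against 532 CPM in knockout-labelled against wild-type cells. Lower were Mzb1, an ER chaperone of B and plasma cells, at 3364 CPM in knockout-labelled cells, against 5372 CPM in wild-type cells, a ratio of 0.626 (0.603 to 0.650), Txndc5 at 1212 against 1801 CPM and Fkbp11 at 190.1 against 308 CPM.

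ER-associated degradation, which returns misfolded chains to the cytosol, had a median log2 ratio of 0.0019 over 23 measured members. At least 2-fold higher was 1 and lower 0, beside 4.26% and 4.68% of all genes. That 1 was Herpud1 (ENSMUSG00000031770, chr8:94386438-94395377, plus strand), an ER membrane protein that organises the degradation complex. It had 4081 UMIs, or 3219.5 CPM, in knockout-labelled cells, against 2433 UMIs, or 1544 CPM, in wild-type cells, a ratio of 2.08 (1.98 to 2.19). Its level in IgG and IgM plasma cells was alike in both libraries, at 1111 CPM in knockout-labelled and 1183 CPM in wild-type cells, and B cells had 239 and 297 CPM. A 2-fold difference of Herpud1 was thus seen in IgA plasma cells, and whether it differed from that of the other cell types was not tested. Sel1l, the scaffold of the same complex, was at 459.9 CPM in knockout-labelled cells, against 296 CPM in wild-type cells, a ratio of 1.55 (1.38 to 1.76), and its ubiquitin ligase Syvn1 was at 183 CPM in knockout-labelled cells, against 254 CPM in wild-type cells, a ratio of 0.719 (0.609 to 0.848). The mannosidase Edem2 was at 876 CPM in knockout-labelled cells, against 1208 CPM in wild-type cells, and Rnf5 at 48.9 CPM in knockout-labelled cells, against 86.3 CPM in wild-type cells, whereas Nploc4, which helps to extract chains from the membrane, was at 43.4 CPM in knockout-labelled cells, against 23.5 CPM in wild-type cells. Partners of 1 complex therefore differed in opposite directions.

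Promoters of 3 of these genes are printed, as the bases before the annotated start in RefSeq (GRCm38.p6, plus strand, 250 bases each). Herpud1, Hspa5 and Hspe1 were taken from the degradation, ER folding and heat shock lists, which differed unequally. Herpud1 was the 1 degradation gene at least 2-fold higher, so it is not typical of its list, whose median log2 ratio was 0.0019. The capitals mark a match to a stress-response motif. Herpud1 (chr8:94386179-94386428) holds the ER stress element ERSE-II, ATTGG and CCACG with 1 base between them, 52 to 42 bases before the start. Hspa5 (chr2:34771840-34772089) holds ERSE, CCAAT and CCACG with 9 bases between them, at 65 to 47. Hspe1 (chr1:55087898-55088147) holds the heat shock element HSE, GAA, TTC and GAA with 2 bases between neighbours, in 2 overlapping matches from 89 to 72.
Herpud1: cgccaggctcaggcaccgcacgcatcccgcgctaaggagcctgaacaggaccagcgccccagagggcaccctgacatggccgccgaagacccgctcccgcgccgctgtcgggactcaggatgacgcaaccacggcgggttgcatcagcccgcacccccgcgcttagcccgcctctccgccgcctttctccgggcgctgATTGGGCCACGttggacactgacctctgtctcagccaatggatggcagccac
Hspa5: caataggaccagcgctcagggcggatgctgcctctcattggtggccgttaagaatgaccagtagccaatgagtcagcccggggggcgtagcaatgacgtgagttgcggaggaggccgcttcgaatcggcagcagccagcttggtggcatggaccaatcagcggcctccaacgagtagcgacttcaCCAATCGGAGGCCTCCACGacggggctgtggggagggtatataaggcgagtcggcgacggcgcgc
Hspe1: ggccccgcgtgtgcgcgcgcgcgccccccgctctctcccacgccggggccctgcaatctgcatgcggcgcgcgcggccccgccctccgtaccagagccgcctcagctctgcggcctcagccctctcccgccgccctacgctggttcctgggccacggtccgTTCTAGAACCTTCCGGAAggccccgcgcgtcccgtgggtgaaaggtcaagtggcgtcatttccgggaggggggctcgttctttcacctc
Both strands were searched. Over the windows from 250 bases before to 50 after the start of 27025 genes, ERSE-II was found in 12 (0.0444%), ERSE in 37 (0.137%) and HSE in 179 (0.662%). ERSE occurred in 8 of 29 ER chaperone genes of the table (Calr, Canx, Creld2, Dnajc3, Ero1b, Hsp90b1, Hspa5 and Pdia6) and HSE in 4 of 16 heat shock genes (Chordc1, Hspd1, Hspe1 and Hsph1). ERSE-II was in 1 of 29 ER chaperone genes, Dnajb11, and in 1 of 17 degradation genes, Herpud1. Among the 17 degradation genes ERSE also occurred in Syvn1, at a log2 ratio of -0.48, and HSE in Nploc4, at 0.89. The core of the unfolded protein response element UPRE, TGACGTGG, was in 193 of all genes (0.714%), in 2 of 29 ER chaperone genes (Txndc11 and Txndc5), 2 of 17 degradation genes (Ube2j1 and Vcp) and 0 of 16 heat shock genes. The 4 HSE genes had log2 ratios of -1.12 (Chordc1), -1.22 (Hspd1), -1.92 (Hspe1) and -2.89 (Hsph1). Of the ERSE genes, Canx was at -0.46 and Calr at 0.42, so genes with the same motif differed in direction.

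The UPR sensors and factors had a median log2 ratio of 0.20 over 19 measured members. Those at least 2-fold higher were Sesn2 and Chac1, given above, and 0 were 2-fold lower, beside 4.26% and 4.68% of all genes. The sensor Ern1, which splices Xbp1 RNA, had 42 against 48 UMIs in knockout-labelled against wild-type cells, a ratio of 1.09 (0.702 to 1.68), and Eif2ak3 (PERK) 110 against 134 UMIs, a ratio of 1.02 (0.786 to 1.32). Atf4 was at 338 CPM in knockout-labelled cells, against 348 CPM in wild-type cells, a ratio of 0.971 (0.854 to 1.10), and Ddit3 (CHOP) at 165 CPM in knockout-labelled cells, against 144 CPM in wild-type cells, a ratio of 1.15 (0.944 to 1.39). Atf6, the sensor that is cleaved in the Golgi, was at 272 CPM in knockout-labelled cells, against 185 CPM in wild-type cells, a ratio of 1.47 (1.25 to 1.72). The lowest members were Atf6b (log2 ratio -0.67, -1.08 to -0.26) and Ppp1r15a (log2 ratio -0.50, -0.64 to -0.37). Of the 3 sensors, Atf6 alone had an interval above 1. Xbp1, a gene of the choosing rule, was at 4975 CPM in knockout-labelled cells, against 5280.5 CPM in wild-type cells.

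Translocation and glycosylation, the entry of new chains into the ER, had a median of -0.19 over 39 members. At least 2-fold higher were 0 and lower 0, beside 4.26% and 4.68% of all genes. The signal peptidase subunit Spcs1 was at 771 CPM in knockout-labelled cells, against 1156 CPM in wild-type cells and the oligosaccharyltransferase subunit Ostc at 194 CPM in knockout-labelled cells, against 363 CPM in wild-type cells, while Sec63 was at 226 CPM in knockout-labelled cells, against 148 CPM in wild-type cells. ER to Golgi traffic had a median of -0.23 over 45 members, again with 0 beyond 2-fold. The cargo receptor Lman1, which carries antibody, was at 772 CPM in knockout-labelled cells, against 909.9 CPM in wild-type cells, and Tmed10 at 2002 CPM in knockout-labelled cells, against 1549 CPM in wild-type cells. The most distant members of that list were Golgb1, at a log2 ratio of 0.71, and Kdelr3 and Bet1, at -0.83 and -0.77. Most shifts in these lists were downward. The interval lay below 1 for 20 and above 1 for 2 of the 39 translocation and glycosylation genes, and below 1 for 17 and above 1 for 4 of the 45 traffic genes, beside 1267 below and 885 above of the 6217 genes measured. Oxidative phosphorylation (78 members, -0.055) and proteasome genes (46 members, -0.13) had medians near that of all genes. Their intervals lay above 1 for 14 and 3 genes and below 1 for 27 and 14. Ribosomal protein genes (87 members, 0.13) lay above that median, with the interval above 1 for 44 and below 1 for 11. Within these lists the most distant were Ndufa1 (0.92) and Ndufs5 (-0.78), Psmc1 (0.44) and Psmb10 (-1.15), and Rps27rt (1.04) and Rpl13a (-0.74), given as log2 ratios. Rps27rt and Rpl13a have near-identical copies, and their counts are uncertain. Without cells under 50% immunoglobulin, Rpl13a was at 0.079.

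Among the genes of plasma cell identity, 20 members had a median of -0.15. At least 2-fold higher was 1 and lower 1, beside 4.26% and 4.68% of all genes. Lower was Ly6c2, a surface protein of plasma cells and monocytes (ENSMUSG00000022584, chr15:75108158-75111970, minus strand), with 5494 UMIs, or 4334 CPM, in knockout-labelled cells, against 17356 UMIs, or 11013 CPM, in wild-type cells, a ratio of 0.394 (0.382 to 0.406). Its reads may be shared with its close paralog Ly6c1. Higher was Enpp1, an ectonucleotidase of plasma cells (ENSMUSG00000037370, chr10:24637914-24712159, minus strand), with 369 UMIs, or 291 CPM, in knockout-labelled cells, against 181 UMIs, or 115 CPM, in wild-type cells, a ratio of 2.54 (2.12 to 3.04). In IgG and IgM plasma cells Ly6c2 stood the other way, at 6586 CPM in knockout-labelled and 3225 CPM in wild-type cells, whereas Enpp1 was again higher in knockout-labelled cells, at 182.5 and 82.5 CPM. Irf4, the factor that commits cells to the plasma fate, was at 207 CPM in knockout-labelled cells, against 288 CPM in wild-type cells, a ratio of 0.718 (0.614 to 0.837), and Slamf7 at 411 CPM in knockout-labelled cells, against 571 CPM in wild-type cells. Spn (CD43), a surface sialoglycoprotein of plasma cells, was at 71 CPM in knockout-labelled cells, against 38.1 CPM in wild-type cells. Cd28, a survival receptor of plasma cells, was at 237 CPM in knockout-labelled cells, against 188 CPM in wild-type cells, a ratio of 1.26 (1.07 to 1.49). The factor Prdm1, of the choosing rule, was at 246 CPM in knockout-labelled cells, against 232 CPM in wild-type cells.

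Homing and adhesion genes had a median of -0.070 over 15 measured members. At least 2-fold higher were 0 and lower 2, beside 4.26% and 4.68% of all genes. Ccr10, the receptor for the colonic chemokine Ccl28 (ENSMUSG00000044052, chr11:101172997-101175443, minus strand), had 162 UMIs, or 128 CPM, in knockout-labelled cells, against 372 UMIs, or 236 CPM, in wild-type cells, a ratio of 0.541 (0.447 to 0.653). It was seen in 27.1% of knockout-labelled and 48.3% of wild-type cells, or in 12.8% (9.25 to 17.1) and 20.1% (15.7 to 25.02) at 1000 other UMIs per cell, where T cells showed it in 0 of 484 and 1 of 657 cells. Integrin Itgb7 was at 89.9 CPM in knockout-labelled cells, against 162 CPM in wild-type cells, a ratio of 0.554 (0.440 to 0.693), and its partner Itga4 at 208 CPM in knockout-labelled cells, against 179 CPM in wild-type cells, a ratio of 1.16 (0.976 to 1.38). Itgb7 thus had an interval below 1, and that of Itga4 included 1. The adhesion genes Icam2 and Itgb2, at 23.7 against 64.7 CPM and 69.4 against 159 CPM, were the members 2-fold lower in knockout-labelled cells, and Cd48 was at 77.3 against 145 CPM. Icam2, Itgb2 and Itgb7 had their highest levels in other classes. Ccr9, the receptor of the small intestine, had 19 against 18 UMIs and was below the limit of 50.

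Receptors for survival signals and regulators of death had a median of 0.15 over 21 members. Tnfrsf13b (TACI) was at 263 CPM in knockout-labelled cells, against 333 CPM in wild-type cells, a ratio of 0.789 (0.685 to 0.906), and Tnfrsf13c (BAFF receptor) at 79.7 CPM in knockout-labelled cells, against 71.7 CPM in wild-type cells, a ratio of 1.11 (0.841 to 1.47). Tnfrsf17, which served to choose the cells, was at 136 against 265 CPM in knockout-labelled against wild-type cells. The member beyond 2-fold was the death effector Bcl2l11 (BIM), at 86.0 CPM in knockout-labelled cells, against 36.8 CPM in wild-type cells, a ratio of 2.34 (1.68 to 3.27), which neutrophils of the same library carried at 187 CPM. Bax, another death effector, was at 218 CPM in knockout-labelled cells, against 139 CPM in wild-type cells, a ratio of 1.57 (1.31 to 1.89), and the protector Mcl1 at 576 CPM in knockout-labelled cells, against 754 CPM in wild-type cells, a ratio of 0.763 (0.695 to 0.838). Bcl2l11 was also higher in other knockout-labelled cells. It was at 91.25 against 27.5 CPM in IgG and IgM plasma cells, 68.0 against 27.2 CPM in B cells and 53.95 against 32.7 CPM in T cells. Bax and Mcl1 were named for their role. Of the 21 members 1 was at least 2-fold higher and 0 lower, beside 4.26% and 4.68% of all genes.

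Autophagy and lysosome genes had the highest median of the 23 lists, 0.60 over 20 members. Of these, 2 were at least 2-fold higher and 0 lower, beside 4.26% and 4.68% of all genes. In the same libraries the list's median was 0.52 in B cells, 0.32 in IgG and IgM plasma cells, 0.23 in endothelial cells and 0.11 in T cells. The remaining classes lay between -0.21 (fibroblasts) and 0.083 (macrophages and monocytes). Ctsz, a lysosomal protease (ENSMUSG00000016256, chr2:174427493-174439039, minus strand), had 985 UMIs, or 777 CPM, in knockout-labelled cells, against 504 UMIs, or 319.8 CPM, in wild-type cells, a ratio of 2.43 (2.18 to 2.71), and belonged to the own genes. Map1lc3b, which coats autophagosomes, was at 1164 CPM in knockout-labelled cells, against 636 CPM in wild-type cells, a ratio of 1.83 (1.69 to 1.98), and Lamp2 at 415 CPM in knockout-labelled cells, against 255 CPM in wild-type cells. Ctsl, at 469 CPM in knockout-labelled cells, against 182 CPM in wild-type cells, reached 2348 CPM in fibroblasts of the knockout-labelled library. Over the 7 own members the median was 0.66. Ctsz was nevertheless higher in macrophages and monocytes of the knockout-labelled library, at 1499 CPM, and Lamp2 in fibroblasts, at 698 CPM. Macrophage markers, which share lysosomal genes, summed to 4.89 and 2.46 UMIs per cell, and their part in the result was not tested.

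Within the list of glycolysis and nutrient uptake, transporters and enzymes differed in direction. Slc7a5, a transporter of large amino acids, was at 218 CPM in knockout-labelled cells, against 94.5 CPM in wild-type cells, a ratio of 2.30 (1.88 to 2.83), and its partner Slc3a2 (CD98) at 1676 CPM in knockout-labelled cells, against 911 CPM in wild-type cells, a ratio of 1.84 (1.72 to 1.97). The glycolytic enzymes Eno1 and Tpi1 were at 178 against 293 CPM and 95.5 against 158 CPM. Both chains of this transporter were higher and both enzymes lower in knockout-labelled cells, and the whole list of 20 members had a median of 0.0025. The transferrin receptor Tfrc was at 11.8 CPM in knockout-labelled cells, against 26.0 CPM in wild-type cells. Genes of redox and metal handling, Tfrc among them, included 7 at least 2-fold higher and 1 lower of 21, beside 4.26% and 4.68% of all genes. Among the 7 were Fth1 (ferritin), at 8062 against 1534 CPM in knockout-labelled against wild-type cells, and Hmox1 (haem oxygenase), at 149 against 36.2 CPM. Another was Mt1 (metallothionein), at 10484 CPM in knockout-labelled cells, against 2875 CPM in wild-type cells. Those 7 had their highest level in other classes (Fth1 at 36896 CPM in macrophages and monocytes of the knockout-labelled library), and 0 of the 5 own members were beyond 2-fold. The glucocorticoid and quiescence list had 4 members at least 2-fold higher and 0 lower of 16, beside 4.26% and 4.68% of all genes. Among the 4 was Fkbp5, at 93.9 CPM in knockout-labelled cells, against 24.8 CPM in wild-type cells. Another was Sesn1, an own gene, at 68.6 CPM in knockout-labelled cells, against 29.2 CPM in wild-type cells.

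Of the effector molecules, 11 were measured, with a median of 0.50. Slpi, a protease inhibitor, was abundant in both, at 6981 CPM in knockout-labelled cells, against 6800.2 CPM in wild-type cells, a ratio of 1.03 (0.998 to 1.06). Il10 was at 78.1 CPM in knockout-labelled cells, against 41.2 CPM in wild-type cells, a ratio of 1.89 (1.37 to 2.63), on 99 against 65 UMIs. Without cycling cells its log2 ratio was 0.090, and without cells under 50% immunoglobulin -0.27, in place of 0.92, so the Il10 difference rested on those cells. Il6 was at 80.5 CPM in knockout-labelled cells, against 15.9 CPM in wild-type cells, a ratio of 5.07 (3.25 to 8.20), but fibroblasts of the knockout-labelled library had 303 CPM, and without cells that gave 2% or more of their other UMIs to markers of another cell type its log2 ratio was 0.86 in place of 2.34. Cd52 was lower, at 269 CPM in knockout-labelled cells, against 921 CPM in wild-type cells, a ratio of 0.292 (0.259 to 0.329). It was not an own gene. B cells had 1258 CPM in the knockout-labelled and 1702 CPM in the wild-type library, and T cells 1558 and 1678 CPM. The part of B and T cell RNA in the Cd52 difference was not tested. Cd274 (PD-L1) was at 267 CPM in knockout-labelled cells, against 358 CPM in wild-type cells, a ratio of 0.746 (0.650 to 0.855).

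Interferon response genes had a median of -0.42 over 30 members. Of these, 0 were at least 2-fold higher and 4 lower, beside 4.26% and 4.68% of all genes. The own genes among the 4 were Isg20, at 118 CPM in knockout-labelled cells, against 277 CPM in wild-type cells, a ratio of 0.424 (0.350 to 0.512), and the immunoproteasome subunit Psmb10, at 82.0 CPM in knockout-labelled cells, against 182 CPM in wild-type cells, a ratio of 0.451 (0.356 to 0.566). Ifi27l2a was at 178 CPM in knockout-labelled cells, against 864 CPM in wild-type cells and Iigp1 at 4.73 CPM in knockout-labelled cells, against 48.9 CPM in wild-type cells. Irf1 was at 197 CPM in knockout-labelled cells, against 344 CPM in wild-type cells, whereas H2-K1 and B2m stayed close to 1, with ratios of 1.07 and 0.937. Other cell types of these libraries had medians of the interferon list that were mostly lower still. They were -1.76 in fibroblasts, -1.42 in endothelial cells, -1.06 in smooth muscle cells and pericytes and -1.02 in macrophages and monocytes. Neutrophils had -0.59, T cells -0.52, B cells -0.38 and IgG and IgM plasma cells 0.028, over 14 members. The NF-kB list (17 members, median -0.18) and the ETS factors (12 members, -0.072) had 0 and 1 members beyond 2-fold. The NF-kB members ranged from Nfkbid (-0.97) to Bcl3 (0.61) on the log2 scale. The ETS member was Elf3, an epithelial gene, with 5 against 56 UMIs in knockout-labelled against wild-type cells.

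B lineage genes had a median of -0.47 over 14 members. At least 2-fold lower were 4 and higher 0, beside 4.68% and 4.26% of all genes. Ms4a1 (CD20) had 14 against 91 UMIs in knockout-labelled against wild-type cells. The summed B cell markers were 3.70 UMIs per knockout-labelled and 6.36 per wild-type cell, in libraries with 583 and 2199 gated B cells, and their part in the result was not tested. With Igha at least 10 times each other heavy chain the log2 ratio of Ms4a1 was -1.16 in place of -2.39. Cd79a, the signalling partner of surface immunoglobulin and the own gene of the list, was at 732 CPM in knockout-labelled cells, against 795 CPM in wild-type cells, a ratio of 0.921 (0.845 to 1.00). Cd74, the class II invariant chain, was at 7505 CPM in knockout-labelled cells, against 10817 CPM in wild-type cells, a ratio of 0.694 (0.676 to 0.711).

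The other members at the ends of the lists differed by less than 2-fold, apart from those given here. On the log2 scale of knockout-labelled over wild type, Ddit4 (glucocorticoid list) stood at 1.58, Hmox1 (redox) at 2.04 and Ccna2 (cell cycle) at -1.63. Ddit4 was highest in endothelial cells, and Hmox1 in another class than IgA plasma cells. Lower ends were Txnip (-0.45) and Per1 (-0.34) of the glucocorticoid list, Il2rg (-0.61) and Ifnar1 (-0.46) of the survival list, Becn1 (-0.25) and Atg3 (-0.22) of the autophagy list, and Ltb (-0.95), Mogs (-0.89), Nfkbie (-0.75), Etv3 (-0.70), Cat (-0.99), Cycs (-0.77), Psme1 (-0.85) and Rpl22l1 (-0.47). Upper ends were Cd9 (0.39) and Itgb1 (0.49) of the homing list, Gbp2 (0.36) and Gbp3 (0.47) of the interferon list, Ebf1 (0.15) and Irf8 (0.26) of the B lineage list, Fli1 (0.31) and Etv6 (0.72) of the ETS list, and Relb (0.50), Dpm3 (0.31), Psma7 (0.37), Ndufb4 (0.80) and Rpl37rt (0.94), with Mcm7 (-0.11) closest to 0 among cell cycle genes. Mcm7 stood at 1.41 without cycling cells, and Cd9 at -0.20 when cells were thinned to 1000 UMIs.

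**Figure D4:**
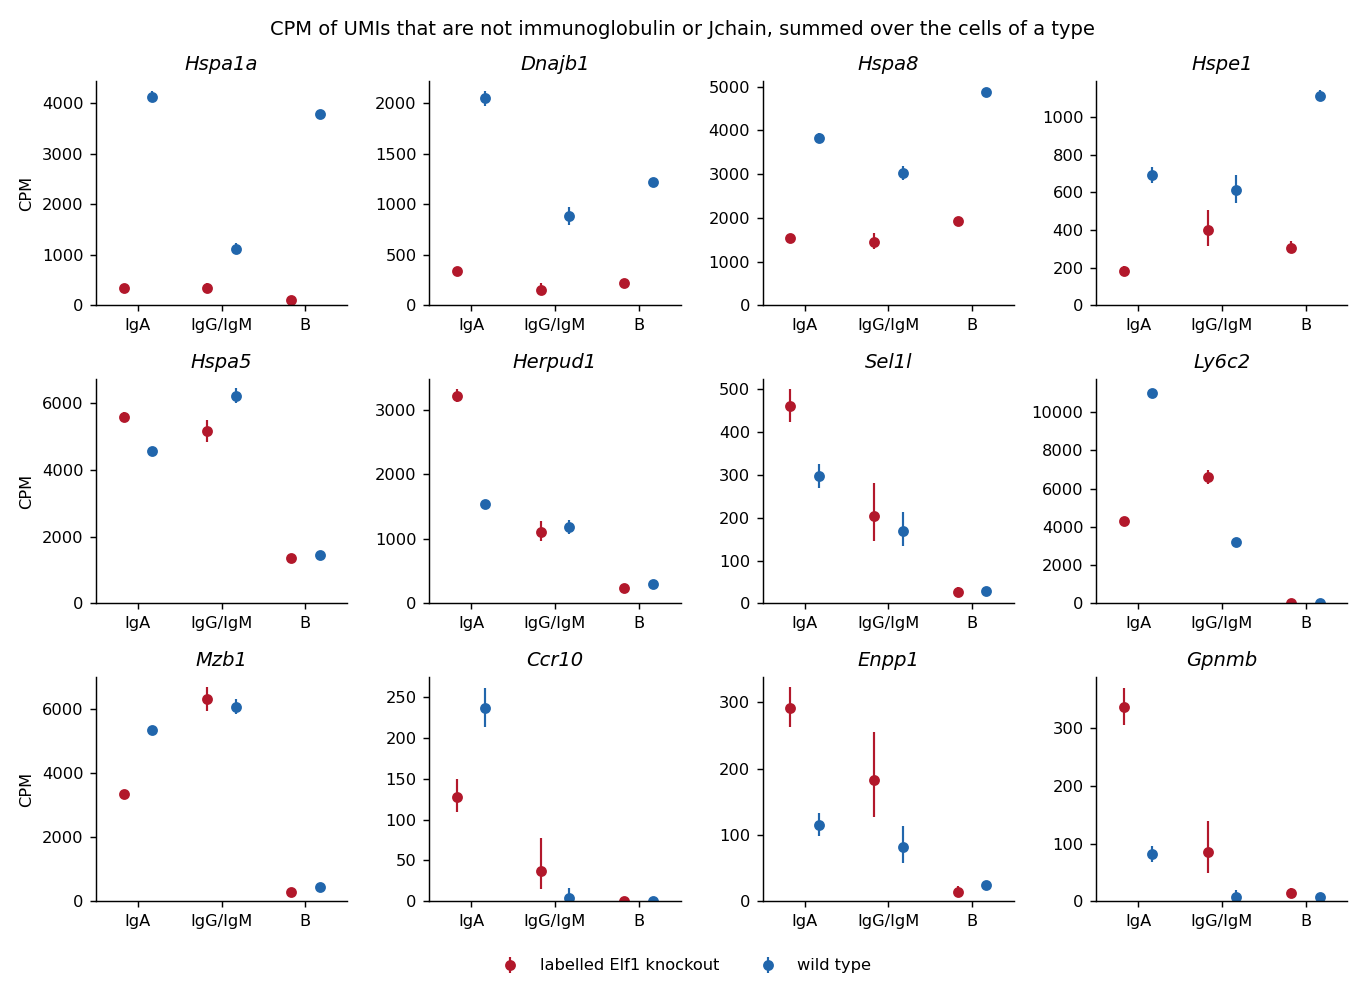
CPM of 12 genes, over UMIs that are not immunoglobulin or Jchain, summed over IgA plasma cells, IgG and IgM plasma cells and B cells, with the library labelled Elf1 knockout (red) left of wild type (blue) and lines for the exact Poisson 95% interval. Hspa1a, Dnajb1, Hspa8 and Hspe1 are lower in the knockout-labelled library in all these cell types, while Herpud1 (3220 against 1544 CPM) differs in IgA plasma cells and Ly6c2 differs in opposite directions in the plasma cell groups.

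Cells differed among themselves by how much of their RNA was antibody, and cycling cells sat at the low end. Cycling cells, those with a UMI of at least 3 of 12 cell cycle genes, were 15 of 329 knockout-labelled (4.56%, 2.57 to 7.41) and 27 of 321 wild-type cells (8.41%, 5.62 to 12), a ratio of 0.542 (0.268 to 1.06). Immunoglobulin made up a median of 25.5% of their UMIs in knockout-labelled and 24.4% in wild-type cells, against 76.5% and 76.3% in the cells that were not cycling. Their Xbp1 level was lower, at 1279 CPM in knockout-labelled and 1593 CPM in wild-type cells, against 5501 and 6260 CPM in the rest. Outside immunoglobulin and Jchain, cycling cells had medians of 9900 and 8860 UMIs, against 3056.5 and 3905 in the rest. More such UMIs make 3 of the 12 genes easier to detect, and the shares of cycling cells were not taken at equal depth.

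Below an immunoglobulin share of 50% lay 39 knockout-labelled and 43 wild-type cells, of which 15 and 22 were cycling. Their median Igha counts were 472 and 526 UMIs. At a share of 80% or more lay 82 and 79 cells, of which 0 and 0 were cycling, with medians of 4726.5 and 5822 Igha UMIs. Xbp1 stood at 1623 and 1668 CPM in the low group and at 7393 and 7761 CPM in the high group. Some cells of the low group also carried much RNA of other cells. Fibroblast markers averaged 83.1 UMIs per knockout-labelled and 18.8 per wild-type cell, with as many as 619 and 237 in 1 cell. In the high group they averaged 5.38 and 2.24 UMIs. Medians were close, at 5 and 2 UMIs in the low group and 4 and 2 in the high group. Cells at a share of 50 to 70% averaged 32.6 and 31.3 UMIs, so such RNA was not confined to the low group. Whether low shares include doublets with other cells was not tested, and no doublets were removed.

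The cell cycle list was lower in the library with fewer cycling cells. Of 30 measured genes 10 were at least 2-fold lower and 0 higher in knockout-labelled cells, beside 4.68% and 4.26% of all genes. Their median was -0.85. The mitotic kinase Plk1 had 9 against 60 UMIs, Cdc20 28 against 106 UMIs and the proliferation marker Mki67 139 against 338 UMIs in knockout-labelled against wild-type cells. Without the cycling cells the median was -0.54.

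Against the other plasma cells of the same library, a smaller share of IgA plasma cells was cycling, in both libraries. The comparison cells passed the same gate but were led by another heavy chain, 25 in the knockout-labelled and 55 in the wild-type library, of which 9 (36.0%, 18 to 57.5) and 23 (41.8%, 28.6 to 55.9) were cycling. By heavy chain they were 4 and 4 cells of Ighm, 2 and 28 of Ighg1, 7 and 8 of Ighg2b, 11 and 15 of Ighg2c and 1 and 0 of Ighg3. Outside immunoglobulin and Jchain they held 186306 and 436322 UMIs, beside 1267594 in 329 and 1575987 in 321 IgA plasma cells. The comparison cells thus had more such UMIs per cell, which makes cycling genes easier to detect. The cycling shares of the 2 groups were not taken at equal depth. At least 2-fold higher in IgA plasma cells were 13.5% of 3930 measured genes in the knockout-labelled and 9.79% of 5180 in the wild-type library, and lower 7.07% and 8.61%. Of 3785 genes measured in both, 146 were 2-fold higher and 94 lower in both libraries.

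The cell cycle list had medians of -1.75 in the knockout-labelled and -1.52 in the wild-type library, with 20 of 23 genes at least 2-fold lower in both. Stmn1, a tubulin regulator of dividing cells, was at ratios of 0.262 (0.173 to 0.403) and 0.136 (0.106 to 0.174), and Top2a at 0.273 (0.187 to 0.406) and 0.182 (0.148 to 0.223). The other genes named lowest in both libraries were Pclaf, Hist1h2ae, Spc24, Hist1h1b, H2afx and Rrm1, of which all act in DNA replication, chromatin or mitosis. The B lineage list was lower as well, with medians of -0.63 and -0.86.

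Higher in IgA plasma cells of both libraries were Serpina3f, a serine protease inhibitor, at ratios over the other plasma cells of 7.61 (4.42 to 14.4) in the knockout-labelled and 44.0 (12.1 to 365) in the wild-type library, and Atp1b1, a subunit of the sodium pump, at 7.56 (3.20 to 23.5) and 5.66 (3.11 to 11.5). Metrnl, Cmpk2, Dirc2, Ccl3, Nacc2 and Ccl11 completed the 8 highest. Of these, Ccl11 was higher in fibroblasts, at 2967 CPM in the knockout-labelled and 1815 CPM in the wild-type library, Ccl3 in macrophages and monocytes and Metrnl in neutrophils. Ccr10 was at 128 CPM in knockout-labelled and 236 CPM in wild-type IgA plasma cells, and at 37.6 and 4.58 CPM in the other plasma cells, from 7 and 2 UMIs. Tnfrsf17 was likewise higher, at 136 and 265 CPM in IgA plasma cells and 37.6 and 16.04 CPM in the others, and so was Cd28, at 237 and 188 CPM beside 69.8 and 32.1 CPM. Tnfrsf17 is a gene of the choosing rule, and all of these rest on few UMIs in the comparison cells. Other receptors did not follow, with Cxcr4 at ratios of 0.548 (0.339 to 0.921) and 0.385 (0.284 to 0.523), Tnfrsf13c at 0.781 (0.475 to 1.35) and 0.287 (0.219 to 0.377), and Itga4 at 0.943 (0.677 to 1.34) and 1.77 (1.29 to 2.497). The homing list as a whole had medians of -0.020 in the knockout-labelled and 0.74 in the wild-type library with 2 of 14 genes 2-fold higher in both, and the survival list 0.54 and 0.72 with 0 of 15. Ly6c2 did not keep 1 direction, with ratios of 0.658 (0.619 to 0.701) in the knockout-labelled and 3.42 (3.23 to 3.61) in the wild-type library.

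**Figure D5:**
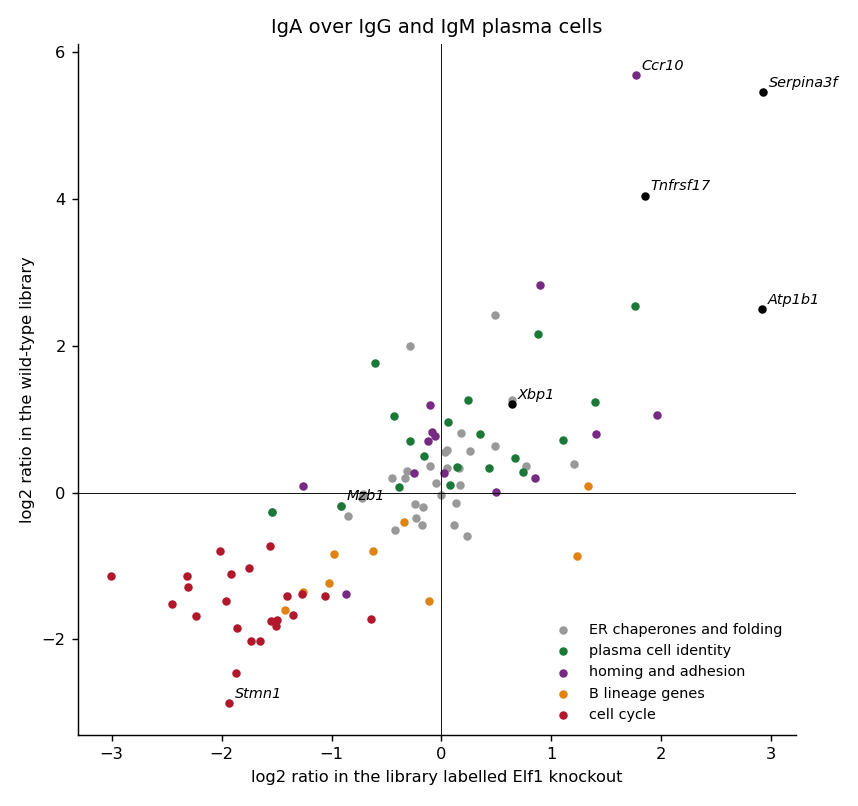
Log2 ratio of IgA plasma cells over IgG and IgM plasma cells in the library labelled Elf1 knockout (x axis) and in the wild-type library (y axis), where each point is 1 gene, coloured by its list. Cell cycle genes (red, medians -1.75 and -1.52) lie low in both, and Ccr10, Tnfrsf17, Serpina3f and Atp1b1 lie high in both.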

How the data were processed

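Cells of the colon of DSS-treated mice were captured with Singleron GEXSCOPE, which tags RNA with cell barcodes and UMIs, and sequenced on an Illumina NovaSeq, per the labels' protocols. Tools named in the submitters' processing notes are cutadapt 1.17, featureCounts 2.0.1 and STAR 2.6.1a, and the build is GRCm38. The authors deposited UMI counts per gene and barcode, which are whole numbers with no normalization. The 2 files hold 39750319 UMIs (labelled knockout) and 32481613 UMIs (wild type).

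IgA plasma cells were chosen by the rule given in the report, and no doublet caller was run. The cells and the gene lists were chosen with earlier results of these data known. Counts were summed over the cells of a library and divided by the UMIs that are not immunoglobulin or Jchain, giving CPM. Each ratio has the knockout-labelled level on top and an exact conditional binomial interval. Further intervals were, for shares, exact Clopper-Pearson and, for levels, exact Poisson, all at 95%. They cover counting error and not the spread between mice. A count of 0 was taken as 3. Genes needed 50 UMIs over both libraries. A background bound was the lowest mean UMIs per cell among 7 cell classes of at least 40 cells, gated by 3 or more marker genes. By rank, 12 genes at each end were named among those with a UMI in 10% of cells of 1 library, 3 times the bound and an interval that excluded 1, and 8 at each end against the other plasma cells. Each list gave its 2 highest and 2 lowest, and further members were named for their role. Mitochondrial, ribosomal, haemoglobin, immunoglobulin, T cell receptor and sex-linked genes, gene models, genes of the choosing rule and markers of other cells were not named by rank. The same rule was then applied to the genes at 0.5 times the level of every other class, a set formed after values were seen. Lists are described by counts at 2-fold and by medians. B cells had a UMI of 2 or more of a short list of B cell genes, which included Ms4a1, Cd79a and Pax5, and under 20 Jchain UMIs. Gene coordinates are from GENCODE M21 on GRCm38 and promoters from RefSeq GRCm38.p6. Alternatives used another scaling (all UMIs, or TMM in edgeR 4.0.16), equal weight per cell, thinning to 1000 UMIs, other limits and cells left out. The ratio intervals were tried on simulated independent counts. These had no spread between cells or mice, so the trial says nothing about such spread. Versions were Python 3.11.15, numpy 2.4.6, pandas 2.3.3, scipy 1.17.1 and matplotlib 3.10.9.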

Additional observations from a re-analysis of the deposited data

How the results depend on the processing

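No paired analysis was possible because each genotype has 1 library. Counts of genes beyond 2-fold depend on the limit of UMIs. With at least 20 UMIs they were 570 higher and 747 lower in knockout-labelled cells, of which 470 and 703 were at 3 times the background bound and 180 and 347 at 0.5 times the level of every other class. With each cell thinned to 1000 UMIs, where fewer genes reach the limit, they were 38 and 30. With equal weight per cell, 122 own genes were at least 2-fold higher. TMM shifted every log2 ratio by 0.064. The plasma cell identity median was -0.32 after thinning, the immediate early median -0.27 with TMM, the B lineage median -0.77 and the ribosomal protein median 0.34 without cells under 50% immunoglobulin. Over all alternatives the heat shock median lay between -1.17 and -1.03 and the cell cycle median between -0.92 and -0.52. The cause of these shifts was not tested. With at least 10 UMIs for a leading variable gene, Ighv9-3 led 21.5% of knockout-labelled cells and the 10 largest combinations held 30.7%.

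Against the other plasma cells, the cell cycle medians (knockout-labelled and wild type) were -2.68 and -2.53 with scaling to all UMIs, -3.63 and -3.06 without cycling cells, which removes those cells from the IgA group alone, and -3.63 and -3.04 without cells under 50% immunoglobulin. The B lineage medians were -1.55 and -1.88 with scaling to all UMIs. The planned removal of cells with 2 UMIs over 2 markers of another cell type was not used, since it left 8 and 23 cells. Removing cells with 2% of other UMIs in such markers, chosen after seeing the data, left 311 and 319. Removing cycling cells or those under 50% immunoglobulin was also chosen after seeing the data. The depth of 329 and 321 cells limits genes under 50 UMIs.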

Other observations

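The kappa IgA plasma cells also carried RNA of the lambda variable gene Iglv1. At least 3 Iglv1 UMIs were seen in 81.6% (76.9 to 85.7) of 320 knockout-labelled and 83.1% (78.3 to 87.2) of 295 wild-type cells with more kappa than lambda constant UMIs, with medians of 13 and 26 UMIs. T cells averaged 0.0232 and 0.0823 Iglv1 UMIs and B cells 0.0412 and 0.0941, and IgG and IgM plasma cells had medians of 59 and 11. The lambda constant genes had medians of 15 and 29 UMIs in the same kappa cells.

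Genes that other cells express for IgA plasma cells differed in both directions between the libraries, which held 40 and 943 gated epithelial cells. Over all cells, Pigr, which carries dimeric IgA across the epithelium, had 189 UMIs in the knockout-labelled and 12066 in the wild-type library, of which 108 and 11276 were in gated epithelial cells, at 342 and 1603 CPM of those cells. The Ccr10 ligand Ccl28 had 22 and 472 UMIs, at 28.5 and 64.7 CPM in epithelial cells, from 9 and 455 UMIs there. CPM here is over all UMIs of a class, immunoglobulin included. Tnfsf13b (BAFF) stood at 57.1 CPM in knockout-labelled and 278 CPM in wild-type fibroblasts, and Cxcl12 at 912 and 2350 CPM. Of all genes measured in fibroblasts, 12.5% were at least 2-fold lower in the knockout-labelled library and 3.38% higher. Madcam1, the vascular ligand of the integrin of Itga4 and Itgb7, had 739 and 2057 CPM in endothelial cells. Il6, a growth factor for plasma cells, ran the other way, at 302 CPM in knockout-labelled and 187 CPM in wild-type fibroblasts, and so did Vcam1 in macrophages and monocytes, at 801 and 444 CPM, but not in fibroblasts, at 366 and 788 CPM. Tnfsf13 (APRIL) had 4 and 7 UMIs over all cells.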
